A study of Trichoderma reesei with 17 samples.

Results

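Xylan-degrading enzymes of the filamentous fungus Trichoderma reesei were followed across the strains and carbon sources of an RNA-seq study of the transcriptional factor XYR1. The group holds 10 of the 9129 genes in the count table and was chosen by protein ID and annotated function: the endoxylanases xyn3 (ID 120229), xyn2 (ID 123818), xyn1 (ID 74223) and xyn4 (ID 111849), the β-xylosidase bxl1 (ID 121127), the α-glucuronidase glr1 (ID 72526), an acetyl esterase gene of family CE16 (ID 121418), the acetyl xylan esterase axe1 (ID 73632), and the α-L-arabinofuranosidases abf2 (ID 76210) and abf1 (ID 123283). The Δxyr1 mutant, a strain with xyr1 deleted, and its parental strain QM9414 were cultivated with 1 mM sophorose, 1% cellulose or 2% glucose, at 28°C and 200 rpm. Each of the 6 groups had 3 libraries, apart from the glucose group of QM9414, which had 2 (replicates 1 and 3, with replicate 2 not analysed here). RNA of mycelium was pooled over the times of a culture, which for both strains were 2, 4 and 6 h with sophorose, and 24 and 48 h with glucose. In cellulose the times were 8 and 24 h for Δxyr1 and 24, 48 and 72 h for QM9414, so in that carbon source genotype and culture time cannot be told apart. The carbon sources also differ in culture time within each strain, and in QM9414 the sophorose cultures share no time with those in cellulose or glucose, so carbon source and culture time cannot be told apart either. The sources also differ on which Δxyr1 cultures were first grown on glycerol: the methods name those in cellulose and the deposited design names those in sophorose. If the QM9414 cultures had no such growth, genotype and growth on glycerol cannot be told apart in the carbon source concerned.

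Xylan is a plant polymer with a backbone of xylose units that carries acetyl, arabinose and glucuronic acid groups. Endoxylanases cut the backbone, β-xylosidases release xylose from the short chains, and esterases, arabinofuranosidases and glucuronidases take off the side groups. In T. reesei, XYR1 is known as the main activator of xylanase and cellulase genes, glucose as a repressing carbon source, and sophorose, a disaccharide of glucose, as a soluble inducer of cellulases.

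Library totals lay between 7014100 and 29056712 counts, and CPM below stands for read counts scaled to one common library size with the TMM factors of edgeR. Reads on xyr1 (TRIREDRAFT_122208) were fewer in the mutant than in the parent but not absent. In cellulose they were 124, 139 and 103 counts in Δxyr1 against 10754, 9153 and 11010 in QM9414. In sophorose they were 1214, 1270 and 1300 in Δxyr1 against 28685, 45128 and 42502 in QM9414. In glucose they were 19, 46 and 74 in Δxyr1 against 102 and 191 in QM9414. The paper describes no xyr1 coverage in the mutant under any condition examined. Some libraries stood apart. In Δxyr1 sophorose replicate 3 the 10 largest genes took 51.5% of the counts, against 12.3% and 15.7% in the other Δxyr1 sophorose libraries, and in the Δxyr1 glucose libraries they took between 20.8% and 39.2%. QM9414 cellulose replicate 1 held reads of glucose-culture genes. For 24 genes at least 50 times higher in the glucose libraries than in the other cellulose libraries of QM9414, its median was 74.6 CPM before TMM correction. The medians were 3.12 and 4.32 CPM in replicates 2 and 3, which the choice of genes keeps low. The same choice in Δxyr1 gave 22 genes, with 3.85 CPM in cellulose replicate 1 against 4.09 and 9.15 CPM in replicates 2 and 3. The part of these features in the results below was not tested. The tests of the 9 enzymes that passed the filter were repeated without each library; the values of xyn1, the levels per gene length, the likeness and the values of other genes were not repeated this way.

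In Δxyr1 the xylan-degrading enzymes were nearly silent in every carbon source. In QM9414 most were abundant in cellulose and sophorose, apart from xyn1 in both and abf1 and abf2 in sophorose, and none was in glucose. Their summed level was 9.21 ± 3.95 CPM in Δxyr1 in sophorose, against 878 ± 129 CPM in QM9414 in sophorose (SD, n = 3 each). In cellulose it was 6.65 ± 1.96 CPM in Δxyr1 and 1810 ± 86.3 CPM in QM9414 (SD, n = 3 each). In glucose it was 5.83 ± 2.60 CPM in Δxyr1 (SD, n = 3), against 6.10 ± 1.07 CPM in QM9414 (SD, n = 2). Levels per culture do not tell whether fewer cells or less RNA per cell carried a transcript.

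**Figure D1:**
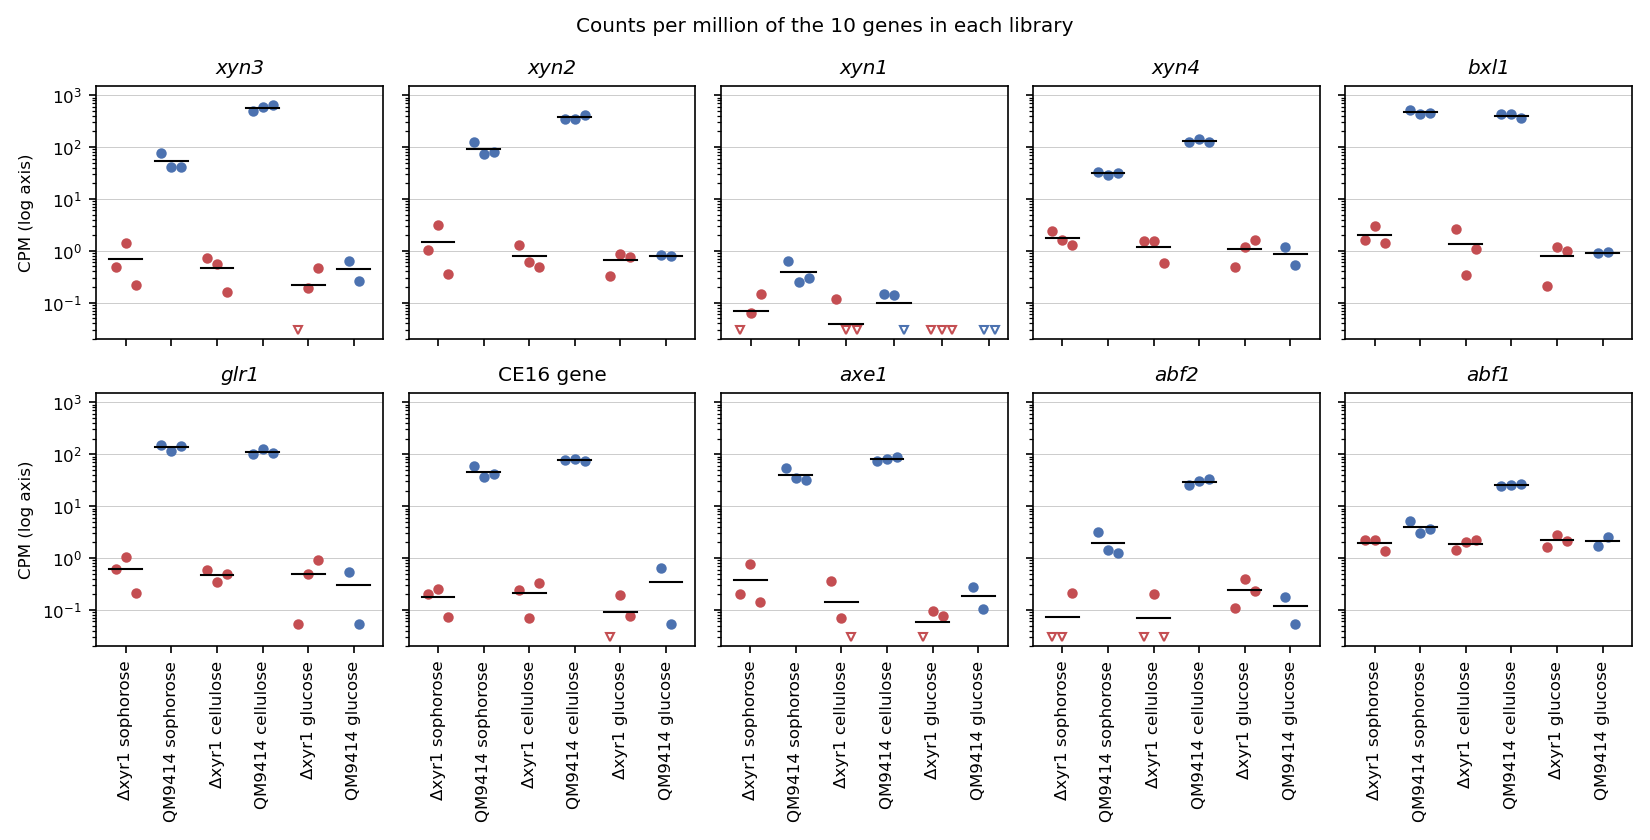
Level in CPM (log axis) of each of the 10 genes in each of the 17 libraries, by strain and carbon source. Points are libraries, black lines are group means, and open triangles at the bottom mark libraries with 0 counts. In sophorose and cellulose the QM9414 points (blue) stand above the Δxyr1 points (red) for 9 of the 10 genes in both, and in glucose the points of the 2 strains overlap for every gene with counts except axe1.

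The filter on low counts asked for 10 counts or more in 2 libraries or more, and it kept 8506 genes and 9 of the 10 enzymes, without xyn1. These entered one quasi-likelihood fit (edgeR) of the 17 libraries. Calls needed a Benjamini-Hochberg adjusted p (over the 8506 genes) no greater than 0.05 together with a log2 fold change of 1 or more in either direction. Between the strains in cellulose, 9 of the 9 tested enzymes were called lower in Δxyr1, where 10.3% of all genes tested were called lower and 8.29% higher. In sophorose 9 of 9 were again called lower, against 6.47% of all genes lower and 10.8% higher. In glucose 0 of 9 were called in either direction, and 0 of 9 had an unadjusted p under 0.05, against 0.717% of all genes called lower and 1.88% higher; DESeq2 also called 0. The median log2 fold change of the 9 enzymes was −8.38 in cellulose, −6.20 in sophorose and −0.36 in glucose, beside medians of −0.02, 0.03 and −0.0023 over all genes tested. In cellulose and sophorose the libraries of the 2 strains did not overlap for any of the 9. The share of all genes tested without overlap was not computed. These 9 passed the filter through the libraries in which they were abundant, and the counts describe them only.

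**Figure D2:**
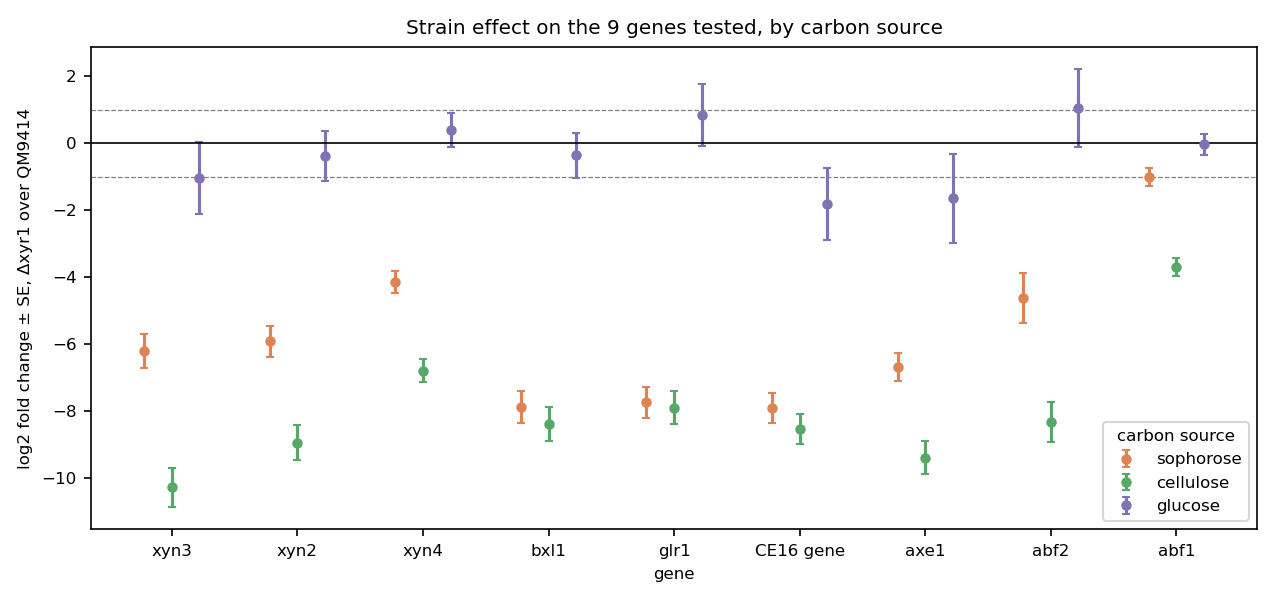
Log2 fold change, Δxyr1 over QM9414, of the 9 tested enzymes in sophorose, cellulose and glucose, with error bars of 1 SE from edgeR and dashed lines at 1 and −1. All values in sophorose and cellulose lie at or below −1.01, with abf1 in sophorose nearest to the line, and the values in glucose lie between −1.81 and 1.05.

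The endoxylanases xyn3 and xyn2 cut the backbone of xylan, and they were the members with the highest levels per gene length in QM9414 in cellulose. In cellulose, xyn3 had 0.712, 0.549 and 0.163 CPM in the Δxyr1 libraries, against 504, 582 and 643 CPM in the QM9414 libraries. The difference was a log2 fold change of −10.28 (SE 0.588, adjusted p = 3.6e-09 from edgeR), at rank 3 from the lowest among all 8506 genes. In sophorose, xyn3 had 0.482, 1.41 and 0.216 CPM in Δxyr1, against 77.8, 41.7 and 41.1 CPM in QM9414. The mutant libraries lay far below those of the parent in both carbon sources, but the parental level in sophorose was itself lower. The log2 fold change in sophorose was −6.20 (SE 0.508, adjusted p = 3.9e-07 from edgeR). In glucose, xyn3 had 0 to 6 counts in the Δxyr1 libraries and 5 and 7 in the QM9414 libraries, which overlapped.

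For xyn2, the Δxyr1 libraries had 1.30, 0.618 and 0.489 CPM in cellulose, against 351, 347 and 417 CPM in QM9414. In sophorose they had 1.03, 3.08 and 0.360 CPM, against 124, 73.3 and 79.7 CPM in QM9414. Replicate 2 was the highest of the Δxyr1 sophorose libraries for xyn2, as for 6 of the 9 tested enzymes, and replicate 3 was the lowest for 8 of 9. The strains differed by a log2 fold change of −8.94 in cellulose (SE 0.534, adjusted p = 5.5e-09) and of −5.92 in sophorose (SE 0.459, adjusted p = 2.1e-07, both from edgeR). In glucose the level of xyn2 was 0.653 ± 0.294 CPM in Δxyr1 (SD, n = 3) and 0.813 and 0.786 CPM in QM9414.

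The endoxylanase xyn4 was less abundant and changed by a smaller factor. Its level in cellulose was 1.54, 1.51 and 0.570 CPM in Δxyr1, against 126, 144 and 128 CPM in QM9414, and in sophorose it was 2.41, 1.60 and 1.30 CPM in Δxyr1, against 33.2, 29.4 and 31.7 CPM in QM9414. The log2 fold changes were −6.79 in cellulose (SE 0.352, adjusted p = 1.5e-09) and −4.14 in sophorose (SE 0.315, adjusted p = 1.7e-07, both from edgeR). In glucose xyn4 had 1.09 ± 0.571 CPM in Δxyr1 (SD, n = 3) and 1.17 and 0.524 CPM in QM9414, again in one range.

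The remaining endoxylanase, xyn1, was close to silent in all libraries. In sophorose it had 0, 1 and 2 counts in the Δxyr1 libraries, against 8, 4 and 5 counts in the QM9414 libraries, which did not overlap. In cellulose it had 1, 0 and 0 counts in Δxyr1, against 3, 2 and 0 in QM9414, and in glucose it had 0 counts in every library of both strains. The summed counts in sophorose gave a ratio of 0.181 for Δxyr1 over QM9414 (95% Clopper-Pearson interval 0.0340 to 0.625, counting error only). In a fit without the filter on low counts, xyn1 was called lower in Δxyr1 in sophorose (log2 fold change −2.34, SE 0.877, adjusted p = 0.047 from edgeR) and not in cellulose (−1.54, SE 1.38, adjusted p = 0.41).

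Of the enzymes that finish the work of the xylanases, bxl1, which releases xylose from short xylan chains, had 2.61, 0.343 and 1.06 CPM in Δxyr1 in cellulose, against 430, 426 and 357 CPM in QM9414. In sophorose it had 1.58, 2.95 and 1.44 CPM in Δxyr1, against 516, 443 and 457 CPM in QM9414. Both inducing carbon sources thus gave the parental strain levels of the same order, unlike for the xylanases. The log2 fold change between the strains was −8.38 in cellulose (SE 0.508, adjusted p = 6.2e-09) and −7.87 in sophorose (SE 0.481, adjusted p = 1.5e-08, both from edgeR). The α-glucuronidase glr1, which removes glucuronic acid from xylan fragments, had 0.593, 0.343 and 0.489 CPM in Δxyr1 in cellulose, against 99.0, 125 and 108 CPM in QM9414. In sophorose it had 0.620, 1.03 and 0.216 CPM in Δxyr1, against 150.3, 117 and 143 CPM in QM9414, so its libraries of the 2 strains were as far apart there as in cellulose. The log2 fold changes were −7.89 (SE 0.485, adjusted p = 7.3e-09) in cellulose and −7.74 (SE 0.457, adjusted p = 1.1e-08, both from edgeR) in sophorose. In glucose neither gene exceeded 1.16 CPM in any library of the 2 strains.

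The esterases remove acetyl groups. The CE16 gene had 2, 1 and 4 counts in Δxyr1 in cellulose, against 1531, 1113 and 1217 in QM9414 (log2 fold change −8.53, SE 0.454, adjusted p = 1.8e-09 from edgeR). In sophorose it had 3, 4 and 1 counts in Δxyr1, against 755, 570 and 681 in QM9414 (log2 fold change −7.90, SE 0.445, adjusted p = 8.0e-09 from edgeR). Its value and that of bxl1 in sophorose were within 1 SE of each other, at ranks 5 and 6 from the lowest of all 8506 genes, so their order is not resolved. For axe1, whose product carries a cellulose-binding module in the study's annotation, the counts in Δxyr1 in cellulose were 3, 1 and 0, against 1524, 1132 and 1465 in QM9414 (log2 fold change −9.38, SE 0.502, adjusted p = 1.8e-09 from edgeR). In sophorose axe1 had 3, 12 and 2 counts in Δxyr1, against 681, 545 and 542 in QM9414 (log2 fold change −6.68, SE 0.415, adjusted p = 1.8e-08 from edgeR). Precision of these folds is set by the few mutant counts: the summed counts allow axe1 to be between 281 and 2648 times higher in QM9414 than in Δxyr1 in cellulose (95% Clopper-Pearson, counting error only). In glucose both genes had at most 2 counts in a Δxyr1 library and at most 7 in a QM9414 library. The libraries of axe1 did not overlap there, with 0, 1 and 1 counts in Δxyr1 against 3 and 2 in QM9414, but the log2 fold change of −1.64 had an SE of 1.33 and an adjusted p of 0.49 (edgeR).

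The arabinofuranosidases abf2 and abf1, which release arabinose side groups, were the least abundant of the tested members in QM9414 in cellulose and sophorose. In cellulose, abf2 had 0, 3 and 0 counts in Δxyr1, against 516, 425 and 543 in QM9414, a ratio of the summed counts of 0.00289 (95% Clopper-Pearson interval 0.000595 to 0.00846). In sophorose it had 0, 0 and 3 counts in Δxyr1, against only 40, 22 and 21 in QM9414, a ratio of 0.0370 (interval 0.00749 to 0.112). The gene was called lower in both (adjusted p = 4.4e-08 in cellulose and 0.0002 in sophorose from edgeR). In Δxyr1 all its counts were in replicate 3 in sophorose and in replicate 2 in cellulose, so without either library that group stands at 0 counts.

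The level of abf1 in cellulose was 1.42, 2.06 and 2.20 CPM in Δxyr1, against 24.0, 25.1 and 26.5 CPM in QM9414, a log2 fold change of −3.70 (SE 0.264, adjusted p = 3.6e-08 from edgeR). In sophorose it was 2.27, 2.18 and 1.37 CPM in Δxyr1, against 5.26, 3.00 and 3.65 CPM in QM9414, a log2 fold change of −1.01 (SE 0.266, adjusted p = 0.0062 from edgeR). This was the smallest change of the group and lay at the fold threshold: it was −0.84 (adjusted p = 0.025) without Δxyr1 sophorose replicate 3, and −0.77 (adjusted p = 0.038) without QM9414 sophorose replicate 1, so the call is lost without either library. In total 3 alternative runs lost it, and the value reached −0.96 in the alternatives that kept all libraries. In glucose abf1 had 1.65, 2.81 and 2.15 CPM in Δxyr1, against 1.72 and 2.57 CPM in QM9414, which overlapped.

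The carbon sources were then compared within the parental strain, with their different culture times. In QM9414, 9 of 9 tested enzymes were called higher in cellulose than in glucose, where 19.2% of all genes tested were called higher, with log2 fold changes between 3.52 for abf1 and 10.44 for xyn3. In sophorose 8 of 9 were called higher than in glucose, where 19.6% of all genes were; abf1 was not (log2 fold change 0.84, SE 0.298, adjusted p = 0.022 from edgeR, under the fold threshold). The abf1 call depends on single libraries: its value was 1.25 without QM9414 glucose replicate 3 and 1.01 without QM9414 sophorose replicate 2, both called. The median log2 fold change of the enzymes was 8.76 in cellulose and 7.01 in sophorose, against −0.01 and −0.02 over all genes. Both comparisons share the 2 glucose libraries.

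Sophorose and cellulose then divided the members. In QM9414, 6 of 9 were called lower in sophorose than in cellulose, where 10.2% of all genes tested were called lower. These were xyn3 (log2 fold change −3.43, SE 0.390), xyn2 (−2.01, SE 0.355), xyn4 (−2.08, SE 0.258), axe1 (−1.03, SE 0.269), abf2 (−3.97, SE 0.387) and abf1 (−2.67, SE 0.239), with adjusted p between 5.8e-07 for abf1 and 0.0070 for axe1 (edgeR). All 3 tested endoxylanases and both arabinofuranosidases were therefore lower in sophorose. The bxl1 value was 0.22 (SE 0.342, adjusted p = 0.65) and the glr1 value 0.31 (SE 0.304, adjusted p = 0.47), neither called. The CE16 gene was at −0.76 (SE 0.260, adjusted p = 0.032 from edgeR), under the fold threshold. For axe1 the call rests on the threshold too: it is lost, at −0.96, −0.94 and −0.90, without QM9414 cellulose replicate 3, sophorose replicate 2 or sophorose replicate 3. In total 6 alternative runs lost the axe1 call, and its value reached −0.91 in the alternatives that kept all libraries. QM9414 sophorose replicate 1 was the highest of its group for 9 of 9 members, and without QM9414 cellulose replicate 1, which held reads of glucose-culture genes, 6 of 9 were called.

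**Figure D3:**
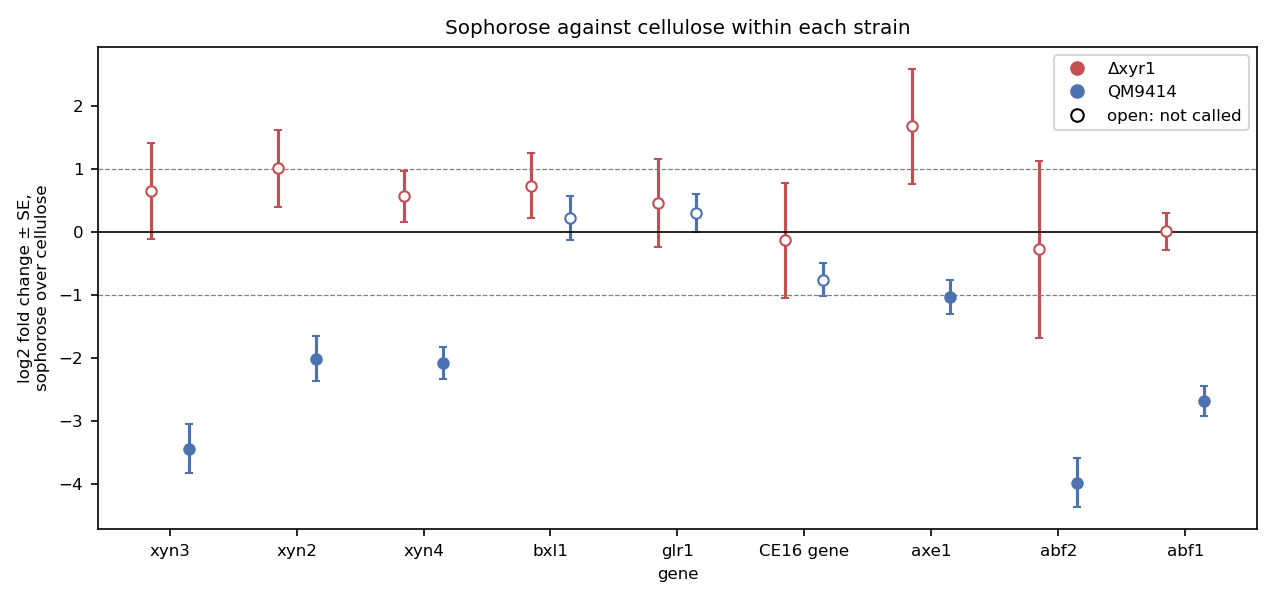
Log2 fold change, sophorose over cellulose, of the 9 tested enzymes in Δxyr1 (red) and QM9414 (blue), with error bars of 1 SE from edgeR, filled points for called genes and dashed lines at 1 and −1. In QM9414 the endoxylanases and arabinofuranosidases lie between −3.97 and −2.01, while bxl1 and glr1 lie at 0.22 and 0.31. None of the Δxyr1 points is called.

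The order of the members differed between the sophorose and the cellulose cultures of QM9414. Per 1000 bases of annotated gene, introns included, the levels in QM9414 in sophorose were highest for bxl1 (186 ± 15.4 CPM per 1000 bases, SD, n = 3), then xyn2 (92.5 ± 27.8) and glr1 (51.8 ± 6.62). The CE16 gene (37.1 ± 9.89), axe1 (36.3 ± 10.4) and xyn3 (32.2 ± 12.6) did not differ beyond their spread, and xyn4 (18.8 ± 1.15), abf1 (2.17 ± 0.636), abf2 (2.00 ± 1.08) and xyn1 (0.505 ± 0.261) followed. In QM9414 in cellulose, xyn2 (372 ± 39.0) and xyn3 (346 ± 41.9) were highest and did not differ beyond their spread, ahead of bxl1 (160 ± 16.4). Next came xyn4 (79.3 ± 5.78) and axe1 (74.2 ± 6.56), within each other's spread, the CE16 gene (62.6 ± 1.98), glr1 (41.8 ± 4.98), abf2 (30.8 ± 4.03), abf1 (13.8 ± 0.687) and xyn1 (0.125 ± 0.108). In levels per gene length, xyn3 was thus above bxl1 in cellulose and below it in sophorose.

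**Figure D4:**
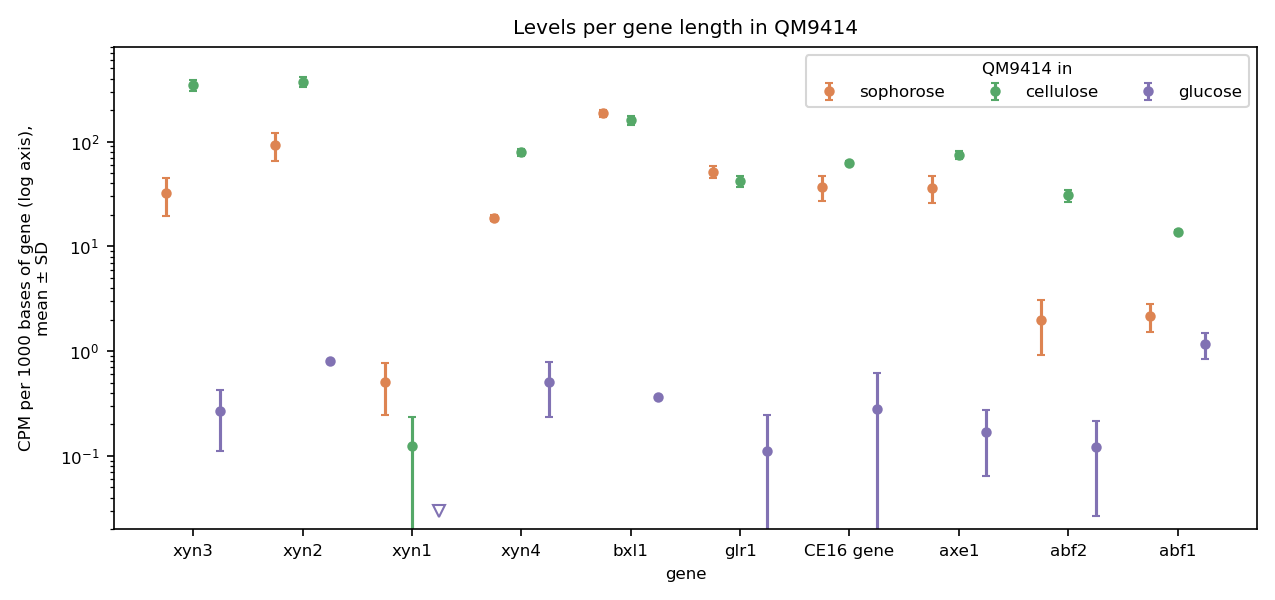
Mean CPM per 1000 bases of annotated gene (log axis) in QM9414 in sophorose, cellulose and glucose, with error bars of 1 SD over 3 libraries (2 in glucose). Bars that reach below the axis are cut off, and the open triangle marks xyn1 in glucose, with 0 counts. The highest points are bxl1 in sophorose at 186, and xyn2 and xyn3 in cellulose at 372 and 346.

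Whether the strain effect itself differed between carbon sources was tested with interaction terms of the same fit. Each term is also the carbon-source effect in Δxyr1 less that in QM9414. With the enzymes nearly silent in Δxyr1, the terms are not independent evidence beside the QM9414 comparisons above. Between sophorose and cellulose, abf1 was at 2.69 here and −2.67 within QM9414, and axe1 at 2.71 and −1.03. The strain effect in sophorose was smaller than in cellulose for 5 of 9 enzymes, where 16.8% of all genes tested were called in that direction (a positive difference). These were xyn3 (difference of log2 fold changes 4.08, SE 0.838, adjusted p = 0.0012), xyn2 (3.02, SE 0.693, adjusted p = 0.0026), axe1 (2.71, SE 0.936, adjusted p = 0.028), abf1 (2.69, SE 0.375, adjusted p = 4.9e-05) and xyn4 (2.64, SE 0.470, adjusted p = 0.00038, all from edgeR). The difference was not called for bxl1 (0.51, SE 0.620, adjusted p = 0.53), glr1 (0.16, SE 0.738, adjusted p = 0.88) or the CE16 gene (0.63, SE 0.989, adjusted p = 0.63). For abf2, with 3 counts in each Δxyr1 group, it was 3.70 (SE 1.77, adjusted p = 0.10 from edgeR) and not called, while DESeq2 called it. That value rests on the 2 libraries that hold all its Δxyr1 counts, and was 7.13 (called) without Δxyr1 cellulose replicate 2 and 0.46 without Δxyr1 sophorose replicate 3. The axe1 call is lost without Δxyr1 cellulose replicate 2 (2.37), Δxyr1 cellulose replicate 3 (2.12) or Δxyr1 sophorose replicate 2 (1.62). Against glucose, the strain effect was more negative in cellulose for 9 of 9, where 11.3% of all genes were called in that direction, and in sophorose for 7 of 9, where 5.48% were; axe1 (−5.03, SE 2.15, adjusted p = 0.12) and abf1 (−0.99, SE 0.411, adjusted p = 0.11, both from edgeR) were not called there. No enzyme called in these interactions other than abf1 had more than 21 counts in a glucose library. With single libraries left out, 7 to 9 were called in cellulose less glucose, where axe1, xyn3 and the CE16 gene lost calls, and 5 to 7 in sophorose less glucose, where xyn3, the CE16 gene and abf2 did. The libraries whose omission took calls away were QM9414 glucose replicate 3 and Δxyr1 glucose replicates 2 and 3.

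Within Δxyr1 few of the enzymes differed between carbon sources. In cellulose against glucose 0 of 9 enzymes were called higher and 0 had an unadjusted p under 0.05 (DESeq2 also called 0), where 23.0% of all genes tested were called higher. In sophorose against cellulose 0 of 9 were called lower, where 11.8% of all genes were; 0 had an unadjusted p under 0.05 and DESeq2 called 0. In sophorose against glucose 2 of 9 were called higher, bxl1 (log2 fold change 1.47, SE 0.545, adjusted p = 0.029) and axe1 (2.80, SE 1.03, adjusted p = 0.027, both from edgeR), where 19.4% of all genes were, so the share of the enzymes was near that of all genes. An unadjusted p under 0.05 was found for 4 of 9 in edgeR, a share that was not computed over all genes. DESeq2 called 3 of 9 higher, where it called 3063 of the 8506 genes in either direction. The bxl1 libraries had 1.58, 2.95 and 1.44 CPM in Δxyr1 in sophorose and 0.213, 1.16 and 0.998 CPM in Δxyr1 in glucose. The axe1 value rests on 17 counts in sophorose and 2 in glucose, a ratio of 8.13 (95% Clopper-Pearson interval 1.93 to 72.6, counting error only). Both calls are lost without Δxyr1 glucose replicate 1, the lowest of its group for 9 of 9 enzymes, or without Δxyr1 sophorose replicate 2, which leave 0 called. Without Δxyr1 sophorose replicate 3 or Δxyr1 glucose replicate 3 the count was 4.

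The likeness of the members was described over the 17 libraries. Over the 36 pairs of tested enzymes, Pearson's r of log2(CPM + 1) lay between 0.757 and 0.997, with a median of 0.965, and Spearman's rho between 0.547 and 0.945. The lowest values were those of glr1 and of bxl1 with abf1, at 0.757 and 0.758, and the same 2 genes with abf2 came next, at 0.794 and 0.796. The tested genes outside the group most like the mean of the standardised members were a GH31 α-xylosidase or α-glucosidase gene (ID 69944, r = 0.997), the polysaccharide monooxygenase gene cel61b (ID 120961, r = 0.995), the endoglucanase genes cel12a (ID 123232, r = 0.991) and cel5a (ID 120312, r = 0.988), and the xyloglucanase gene CEL74a (ID 49081, r = 0.982), over 17 libraries. With a pseudocount of 0.1 in place of 1, 3 of these 5 stayed among the 5 most alike, and cel5a was at rank 12. These correlations describe 17 points from 6 groups.

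**Figure D5:**
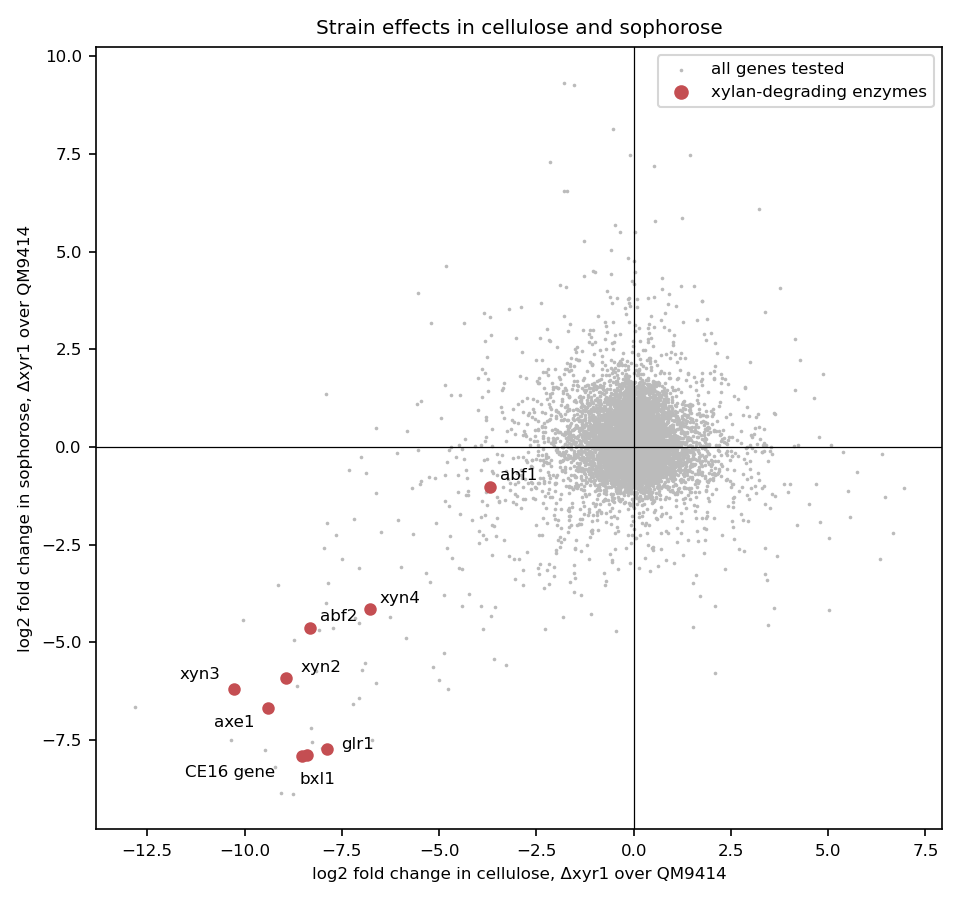
Log2 fold change, Δxyr1 over QM9414, of the 8506 genes tested, in cellulose (horizontal axis) and in sophorose (vertical axis), with the 9 tested enzymes in red. The enzymes lie in the lower left, from −10.28 to −3.70 on the cellulose axis and from −7.90 to −1.01 on the sophorose axis, with abf1 nearest to the origin.

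The regulators and the pathway of xylose use were set beside the enzymes. The fold of xyr1 itself, the deleted gene, is given above by its counts, and in QM9414 it was higher in sophorose (2252, 2883 and 2546 CPM) than in cellulose (534, 654 and 677 CPM), a log2 fold change of 2.04 (adjusted p = 0.00051 from edgeR), the opposite order to the 3 tested endoxylanases. The counts of xyn1, 17 in sophorose against 5 in cellulose, ran the same way as xyr1, with a ratio of 3.80 (95% Clopper-Pearson interval 1.35 to 13.2, counting error only) and no call without the filter on low counts (log2 fold change 1.86, adjusted p = 0.089 from edgeR). The xylanase regulator ace3 (TRIREDRAFT_77513) was lower in Δxyr1 in both inducers, at an adjusted p under 0.05 but by less than the fold threshold: it had 141, 149 and 140 CPM in Δxyr1 in cellulose, against 254, 295 and 266 CPM in QM9414 (log2 fold change −0.92, SE 0.118, adjusted p = 1.6e-05 from edgeR). In sophorose it had 521, 451 and 451 CPM in Δxyr1, against 725, 838 and 730 CPM in QM9414 (log2 fold change −0.69, SE 0.117, adjusted p = 0.00029 from edgeR). The D-xylose reductase gene xyl1 (ID 107776), which makes xylitol from xylose, was called lower in Δxyr1 in both inducers, at 14.3 ± 0.870 CPM in Δxyr1 and 177 ± 3.34 CPM in QM9414 in cellulose, and at 63.4 ± 8.35 CPM in Δxyr1 and 252 ± 29.0 CPM in QM9414 in sophorose (SD, n = 3 each; log2 fold changes −3.63 and −1.99, adjusted p = 4.9e-08 and 2.0e-05 from edgeR). The level of xyl1 within Δxyr1 was higher in sophorose than in glucose by 1.34 on the log2 scale (adjusted p = 0.0002 from edgeR). It was 63.4 ± 8.35 CPM in sophorose against 25.2 ± 7.85 CPM in glucose. In that comparison 19.4% of all genes tested were called higher. The xylitol dehydrogenase gene xdh1 (ID 81271), which acts after xyl1, was not called between the strains in any carbon source. Its log2 fold changes were 0.03 in glucose, −0.15 in sophorose and −0.64 in cellulose, all under the fold threshold. Its cellulose libraries nevertheless stood apart, with 55.9, 59.7 and 49.5 CPM in Δxyr1 against 76.1, 93.9 and 87.2 CPM in QM9414. Libraries of the 2 strains overlapped for xdh1 in glucose and sophorose.

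Other genes of the families that hold xylan-active enzymes gave a mixed picture. Of 15 such genes, all tested, 6 were called lower and 2 higher in Δxyr1 in cellulose, 6 lower and 0 higher in sophorose, and 0 lower and 2 higher in glucose, with medians of −0.20, −0.88 and 0.03. Not all are annotated as xylan enzymes. The lower calls include a galactanase gene (ID 110894) in both inducers and a cutinase gene (ID 60489) in sophorose. Over all genes tested, 10.3% were called lower and 8.29% higher in cellulose, 6.47% and 10.8% in sophorose, and 0.717% and 1.88% in glucose, so the 2 higher calls of 15 in cellulose are near the share of all genes. The 3 largest falls in cellulose were those of cip2 (ID 123940, family CE15, −8.28), a GH30 endo-β-1,4-xylanase gene (ID 69276, −6.62) and a GH43 β-xylosidase or α-L-arabinofuranosidase gene (ID 3739, −4.88). In sophorose they were cip2 (−7.54), the GH30 xylanase gene (−6.03) and a CE5 acetyl xylan esterase gene (ID 54219, with 1 count in the 3 Δxyr1 libraries against 65 in those of QM9414). The cip2 gene encodes a glucuronoyl esterase, and its level in cellulose was 0.390 CPM on average in Δxyr1 against 118 CPM in QM9414. Higher in Δxyr1 in cellulose were a CE16 acetyl esterase gene (ID 103825, 1.59) and a GH115 glucuronidase gene (ID 79606, 1.22), which averaged 320 CPM in Δxyr1 and 138 CPM in QM9414. In glucose a GH30 gene annotated as a glucan endo-1,6-β-glucanase (ID 69736), an activity on another polymer, was called higher (1.46, adjusted p = 0.047 from edgeR). So was the GH54 arabinofuranosidase gene abf3 (ID 55319, 1.24, adjusted p = 0.017 from edgeR). With only the groups compared in the fit, 0 of 8021 genes were called between the strains in glucose, so both calls were lost. The gene abf3 was called lower in Δxyr1 in cellulose (−1.32, adjusted p = 0.00018 from edgeR), as was abf1 of the same family. In sophorose abf3 was at 0.63 (adjusted p = 0.025), under the fold threshold, where abf1 was at −1.01.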

How the data were processed

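The authors aligned reads with TopHat2 2.0.4 and deposited the read counts per gene that HTSeq 0.6.0 gave, with no normalization (submitters' processing notes). The deposited normalized table (the counts divided by DESeq2 size factors) and the authors' columns of fold changes and p-values were not used, apart from the gene descriptions beside them. The analysis of the counts used edgeR 4.0.16 (quasi-likelihood fit, TMM) and limma 3.58.1 under R 4.3.3; DESeq2 1.42.0 was an alternative. Library totals had a median of 14468110 counts, which limits precision for genes with a few counts; intervals cover counting error only. Replicates are biological replicates per the paper's methods, and no number in the labels ties a library to a shared culture. The alternatives were other scaling factors, filters, fold thresholds and groups in the fit, a replicate block, and each library left out. The fits were tested on simulated data.

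The members and the lists of other genes were chosen with earlier results of these data known. Named genes are the 10 members, xyr1, ace3, xyl1, xdh1, up to 3 called genes per direction and strain comparison of the other families, and the 5 genes most like the members. A galactanase and a cutinase gene of the other families are named for their annotation. Likeness was computed on log2(CPM + 1). The list of families was read from the study's table of CAZymes. The RefSeq gene models of strain QM6a matched all 10 members and 9072 of 9129 IDs; it gives gene spans and no coding lengths, so levels per length use spans. Sequences, promoters and chromosome positions were not used here.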

Additional observations from a re-analysis of the deposited data

Results flagged for a closer look

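The strain effect, as a log2 fold change of Δxyr1 over QM9414, differed between carbon sources by the interaction test of edgeR for the following members, each with an adjusted p no greater than 0.05 and a difference of 1 or more. Sophorose less cellulose, the difference was 4.08 for xyn3, 3.02 for xyn2, 2.71 for axe1, 2.69 for abf1 and 2.64 for xyn4. Cellulose less glucose, it was −9.37 for abf2, −9.24 for xyn3, −8.75 for glr1, −8.55 for xyn2, −8.02 for bxl1, −7.74 for axe1, −7.17 for xyn4, −6.72 for the CE16 gene and −3.67 for abf1. Sophorose less glucose, it was −8.59 for glr1, −7.51 for bxl1, −6.09 for the CE16 gene, −5.67 for abf2, −5.53 for xyn2, −5.16 for xyn3 and −4.53 for xyn4. These differences are not independent of the carbon-source comparisons within QM9414. Some of the calls were lost in alternatives. With single libraries left out, axe1, xyn3 and the CE16 gene lost theirs in cellulose less glucose, axe1 in sophorose less cellulose, and xyn3, the CE16 gene and abf2 in sophorose less glucose. With only the groups compared in the fit, xyn3 and the CE16 gene lost theirs in sophorose less glucose, and without scaling factors axe1 did in sophorose less cellulose. Groups of 3 libraries were not tested for single outlying libraries.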

How the results depend on the processing

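The counts of called enzymes in the strain comparisons and in QM9414 kept their direction and stayed within 1.5 times the reported count in every alternative run. Depth limits what can be said of Δxyr1, where no enzyme had more than 48 counts in a library. The count called higher in sophorose than in glucose within Δxyr1 was 2, and became 4 without scaling factors, 0 with only the groups compared in the fit, and 0 to 4 when single libraries were left out. With only the groups compared, bxl1 lost its call, while axe1 failed the filter on low counts and was not tested. The count called higher in cellulose than in glucose within Δxyr1 was 1 without scaling factors, against 0. With a replicate block the counts stayed at 9, 9 and 0 for the strain comparisons in cellulose, sophorose and glucose; correlations of same-numbered libraries were −0.20 to 0.13 for cellulose cultures and 0.092 to 0.34 for sophorose cultures, so the numbers were not taken to pair the samples, although every library correlated best with its own number between the strains in sophorose, between the strains in glucose (0.19 to 0.35, 2 pairs) and in sophorose against glucose in QM9414 (0.14 to 0.17, 2 pairs). Of the alternatives for single enzymes, 1623 kept direction and call, 31 lost the call, 19 gained it and 45 changed sign.

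Leaving out the scaling factors moved the median of all genes by 0.20 in the strain comparison in cellulose, by −0.39 in sophorose and by −0.60 in glucose, and the share of called genes that were higher in Δxyr1 was then 57.6%, 22.3% and 5.89%, against 44.5%, 62.5% and 72.4% with them. Within Δxyr1 the median moved by 0.84 in cellulose against glucose, by 0.35 in sophorose against glucose and by −0.48 in sophorose against cellulose, and the share of higher calls was 80.9%, 69.7% and 19.1%, against 52.0%, 53.9% and 53.4%. For the interactions the share was 21.1% against 58.8% (sophorose less cellulose) and 86.1% against 41.1% (cellulose less glucose). Over all genes, the strain comparison in glucose called 221 genes, 306 with DESeq2 and 0 of 8021 with only the groups compared; the cause was not tested.

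Values that changed sign were all among those not called. Without scaling factors, xyn4 was at −0.19 between the strains in glucose, abf1 at 0.65 in cellulose against glucose, 0.23 in sophorose against glucose and −0.43 in sophorose against cellulose within Δxyr1, glr1 at −0.024 in sophorose against cellulose within Δxyr1, and the interaction of sophorose less cellulose was −0.094 for bxl1, −0.44 for glr1 and −0.044 for the CE16 gene. With only the groups compared, abf1 was at 0.017 between the strains in glucose. With single libraries left out, the strain effect in glucose ranged from −0.25 to 0.36 for abf1, −0.71 to 0.25 for bxl1, −2.96 to 0.40 for the CE16 gene, −0.26 to 2.88 for glr1, −0.61 to 0.072 for xyn2 and −0.15 to 0.96 for xyn4. Within Δxyr1, cellulose against glucose ranged from −0.35 to 0.051 for abf1, −0.30 to 1.72 for axe1, −0.085 to 1.27 for bxl1, −0.67 to 1.12 for glr1, −0.13 to 0.56 for xyn2 and −0.24 to 0.71 for xyn4. Sophorose against cellulose ranged from −0.13 to 0.19 for abf1, −3.46 to 3.16 for abf2, −0.65 to 0.44 for the CE16 gene, −0.11 to 0.83 for glr1, −0.10 to 1.45 for xyn2 and −0.37 to 1.04 for xyn3. Sophorose against glucose ranged from −0.33 to 0.072 for abf1 and −0.19 to 1.59 for glr1. The interaction of sophorose less cellulose ranged from −0.030 to 1.33 for bxl1 and −0.42 to 0.47 for glr1.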
